A study of Mus musculus with 12 samples.

Results

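This account follows 48 genes of the Wnt, BMP and Hedgehog pathways, the secreted signals that surround the intestinal crypt, in whole jejunum of mice that lost the centrosomal gene Fgfr1op (current symbol Cep43). The genes were chosen by name: 9 Wnt ligands, 3 R-spondins, 7 secreted Wnt antagonists, 6 genes of Wnt reception and secretion, 5 BMP ligands, 4 BMP antagonists, 2 BMP receptors, 5 BMP targets, 2 Hedgehog ligands, 3 Hedgehog targets and 2 markers of niche mesenchyme. All 48 had a probe set with a single gene symbol, among 19938 genes tested. The study hybridised 12 Affymetrix Mouse Gene 1.0 ST arrays, 1 per mouse, in 6 groups of 2 mice: wild type (WT) and Fgfr1op knockout (KO) at days 6, 9 and 12 on a scale the labels call post-tamoxifen. The protocol gives tamoxifen, which switches on the recombinase in inducible knockouts, as intraperitoneal injections of 75 mg per kg on 5 days in a row. The sample records list this dose for WT and KO alike, without a separate statement that WT mice were injected. The driver of the recombinase, the strain and age of the mice, and whether WT mice carried the recombinase are absent from the sources used here. Effects of drug or recombinase and of gene loss therefore cannot be told apart.

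As background, Wnt ligands bind Frizzled receptors and Lrp5 or Lrp6 on crypt base cells, and R-spondins prolong that signal; together they keep intestinal stem cells dividing. BMP ligands act through Bmpr1a and Bmpr2 toward the villus and restrain stem cell traits, while antagonists such as Grem1, made by muscle and mesenchyme below the crypts, keep BMP low at the base. Hedgehog ligands pass from the epithelium to the mesenchyme, where Ptch1, Hhip and Gli1 are both pathway components and its best-known targets. Id genes, Smad6 and Smad7 are induced by BMP in many tissues, and Smad6 and Smad7 in turn inhibit BMP and TGF-beta receptors.

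To show the regulatory sequence in front of the targets that differed between genotypes, the RefSeq promoter windows of 2 Hedgehog targets and 2 BMP targets are printed. Each holds 300 bases around the annotated start, read 5′ to 3′ on the gene's own minus strand in GRCm38.p6. Capitals mark GGCGCC, a palindromic element bound by BMP-activated Smads.
Ptch1, chr13:63565686-63565985: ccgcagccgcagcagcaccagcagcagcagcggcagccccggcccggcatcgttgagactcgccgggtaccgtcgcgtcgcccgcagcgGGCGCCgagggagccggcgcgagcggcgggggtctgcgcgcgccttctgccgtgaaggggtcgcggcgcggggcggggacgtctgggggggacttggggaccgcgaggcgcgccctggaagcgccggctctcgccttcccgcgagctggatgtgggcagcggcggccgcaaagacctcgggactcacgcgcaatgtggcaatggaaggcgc
Hhip, chr8:80057959-80058258: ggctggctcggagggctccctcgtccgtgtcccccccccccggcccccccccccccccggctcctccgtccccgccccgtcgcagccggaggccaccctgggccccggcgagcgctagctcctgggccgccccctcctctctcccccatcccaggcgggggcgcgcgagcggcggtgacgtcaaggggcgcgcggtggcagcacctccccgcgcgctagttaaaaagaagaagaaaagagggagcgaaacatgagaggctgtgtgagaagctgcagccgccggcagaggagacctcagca
Smad6, chr9:64022010-64022309: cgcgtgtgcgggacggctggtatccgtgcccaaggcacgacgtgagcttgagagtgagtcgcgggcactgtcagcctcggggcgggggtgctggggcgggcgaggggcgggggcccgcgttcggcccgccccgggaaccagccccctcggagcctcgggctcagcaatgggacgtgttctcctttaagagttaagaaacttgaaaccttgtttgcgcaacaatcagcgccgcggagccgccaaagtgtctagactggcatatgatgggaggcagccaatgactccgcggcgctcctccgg
Id2, chr12:25096043-25096342: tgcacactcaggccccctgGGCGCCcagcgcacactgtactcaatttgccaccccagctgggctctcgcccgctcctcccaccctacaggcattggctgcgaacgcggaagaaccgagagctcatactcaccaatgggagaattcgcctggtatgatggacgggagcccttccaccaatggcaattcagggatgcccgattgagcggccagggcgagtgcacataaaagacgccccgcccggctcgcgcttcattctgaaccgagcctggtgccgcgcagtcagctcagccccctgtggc
GGCGCC begins at base 90 of the Ptch1 window and base 20 of the Id2 window. RefSeq windows matched 29 of the 48 genes, with 32 promoters. Of these, 11 held GGCGCC, or 34.4%, against 11.9% of all 32851 windows of that length. The median GC content was 66.5% in the 32 promoters and 52.7% in all. The GLI core TGGGTGGTC, searched on both strands like the others, was in 0 of the 32 and in 0.253% of all windows, and the TCF core CTTTGAT was in 2, or 6.25%, against 3.73%. These are matches of letters and carry no statement on binding.

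Signals are log2 values as deposited, so a difference of 1 is a doubling of signal, and levels of different genes were not compared. They were not tested against background. Fgfr1op itself was at 6.69 and 6.56 in KO against 6.97 and 6.90 in WT on the 4 arrays of day 6, and fell at day 9 by 0.39 (SE 0.11, limma adjusted p = 0.0184). The fall averaged over days was 0.26 (SE 0.06, adjusted p = 0.00713). The day 9 call ended without any 1 array of that day (differences of -0.44 to -0.35), and the day 12 difference was -0.09 (adjusted p = 0.638). Since the deleted part is not given here, the probe set checks the labels only weakly. The absorptive markers of jejunum were present: 13 enterocyte genes had means of 12.26 to 12.51 over the 6 WT arrays, and 10.70 to 11.21 on the 4 KO arrays of days 9 and 12. Markers of crypt base stem cells had means of 8.18 to 8.39 in WT, 7.90 to 8.01 in KO at day 6 and 6.78 to 7.04 in KO at days 9 and 12. The mean of 14 smooth muscle genes was 8.61 to 9.29 in WT and 7.60 to 7.77 in KO at day 6, 7.99 to 8.67 and 7.91 to 8.87 at day 9, and 8.78 to 8.87 and 9.02 to 9.51 at day 12. In whole tissue, fewer cells of a type and less RNA per cell cannot be told apart.

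At day 6, 1 of the 48 niche genes passed limma's test at an adjusted p under 0.05 (2.08%), beside 1.03% of all genes tested. It was higher in KO, as were 0.597% of all genes. At day 9, 14 passed, 3 higher and 11 lower in KO; the share of 29.2% lay near the 29.7% of all genes. At day 12, 12 passed, 5 higher and 7 lower, or 25% against 27.3%. All genes were called higher and lower at 13.7% each that day. Lower calls at day 9 made up 22.9% of niche genes and 17.1% of all genes, and higher calls 6.25% and 12.6%. The median difference over the 48 genes was -0.03, 0.00 and 0.01 at days 6, 9 and 12, beside 0.00, 0.03 and 0.02 over all genes. The number of niche genes that differed was thus close to the background. Counts by role below cover few genes and were not tested against these shares. Of all genes called at day 6, 58.0% were higher in KO, a share that was 68.3% with arrays centred on their medians and 51.7% with quantile normalisation.

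**Figure D1:**
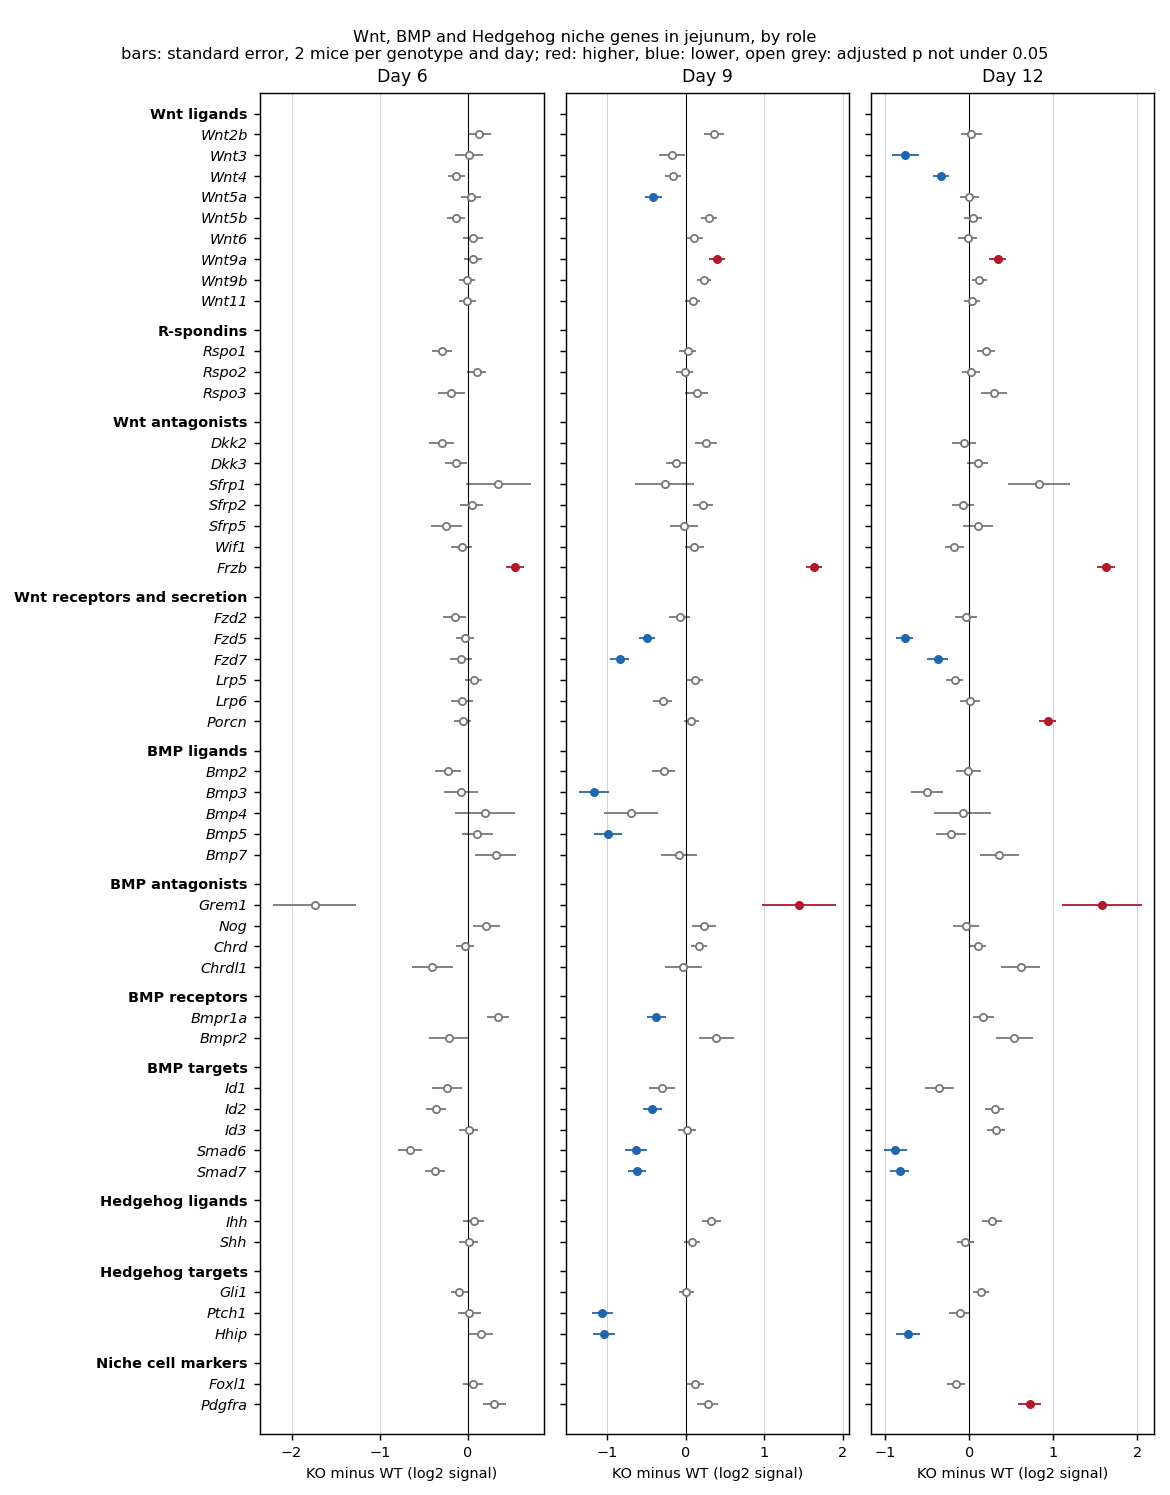
KO minus WT differences in log2 signal (x axis, bars are standard errors, 2 mice per genotype and day) for the 48 niche genes by role, with days 6, 9 and 12 in columns. Filled red points are genes called higher in KO, filled blue points genes called lower and open grey points genes not called; Frzb is red at each day, and 11 genes are blue at day 9.

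Among secreted Wnt antagonists the one gene that rose was Frzb, which encodes sFRP3, a decoy that binds Wnt ligands. Its log2 signals were 6.39 and 6.24 in KO against 5.80 and 5.77 in WT at day 6. On the arrays of day 9 the values were 7.36 and 7.17 in KO against 5.58 and 5.68 in WT, and at day 12 they were 7.39 and 7.38 in KO against 5.87 and 5.66 in WT. Every KO array lay above every WT array, those of other days included, and those of days 9 and 12 exceeded those of day 6. Frzb rose by 0.53 at day 6 (SE 0.11, limma adjusted p = 0.0433), by 1.63 at day 9 (adjusted p = 1.01e-06) and by 1.62 at day 12 (adjusted p = 6.86e-07), a 3.10-fold and 3.08-fold rise of signal. All 6 WT arrays lay between 5.58 and 5.87, under the log2 signal of 6 treated here as dim. Both folds thus start from a low WT signal. Averaged over days the rise was 1.26 (limma adjusted p = 4.65e-08, exact within-day permutation p = 0.00926, the smallest it can give). The day 6 call ended when any of the 4 arrays of that day was left out (0.46 to 0.61, adjusted p of 0.136 to 0.31). It also ended without any WT array of days 9 and 12 (0.0574 to 0.0653), while the later calls held.

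The other 6 antagonists did not pass on any day. Sfrp1, another Wnt-binding decoy, had its highest signal, 10.86, in KO replicate 2 of day 12, against 9.65 in replicate 1 and 9.35 and 9.48 in WT. Its difference that day was 0.83 (SE 0.37, adjusted p = 0.127). The Lrp-binding inhibitors Dkk2 and Dkk3 had differences between -0.30 and 0.26, and between -0.14 and 0.10. The Wnt-binding Sfrp2, Sfrp5 and Wif1 stayed under a log2 signal of 6 on all arrays, which limits what can be seen of them.

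Wnt ligands changed singly and in both directions. At day 9, 1 of 9 rose and 1 fell, and at day 12, 1 rose and 2 fell. Rises and falls made up 12.6% and 17.1% of all genes at day 9, and 13.7% each at day 12. Wnt5a, a mesenchymal ligand of the non-canonical branch, read 6.86 and 6.96 in KO against 7.29 and 7.35 in WT at day 9, and fell by 0.41 (SE 0.11, limma adjusted p = 0.0182). Both KO arrays lay below both WT arrays. At day 12 it read 7.35 and 7.24 in KO against 7.30 and 7.28 in WT, a difference of 0.00 with overlapping groups. Wnt9a, a canonical ligand, read 6.82 and 6.55 in KO against 6.36 and 6.21 in WT at day 9 and 6.41 and 6.40 in KO against 6.09 and 6.05 in WT at day 12. The rises were 0.40 (SE 0.10, adjusted p = 0.0128) and 0.34 (adjusted p = 0.0316). The KO arrays were the higher ones at both days.

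Wnt3, the ligand that Paneth cells supply to stem cells, read 5.15 and 5.34 in KO against 6.27 and 5.74 in WT at day 12 and fell by 0.76 (SE 0.16, limma adjusted p = 0.00458). Both KO arrays lay below the whole WT range of 5.74 to 6.27, and Wnt3 did not pass at day 6 or day 9 (0.01 and -0.17). Its signals lay near or under the log2 signal of 6 treated here as dim, which limits the reading of its fall. Wnt4 read 7.15 and 7.12 in KO against 7.47 and 7.48 in WT at day 12, a fall of 0.34 (SE 0.10, adjusted p = 0.0228); its second probe set, dimmer on average, gave a difference of -0.11, and the mean of both gave -0.22 (adjusted p = 0.1). Paneth cell markers were lower at day 12 too, 5 of 6 called beside 13.7% of all genes, with means of 11.57 to 11.82 in WT and 10.80 to 10.87 in KO. Their part in the fall of Wnt3 was not tested.

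The Wnt5a call ended without KO replicate 1 (-0.36, adjusted p = 0.109), WT replicate 1 (-0.44, 0.0592) or WT replicate 2 (-0.38, 0.107) of day 9. That of Wnt9a at day 9 ended without KO replicate 1 (0.27, adjusted p = 0.119) or WT replicate 2 (0.33, 0.114). Those of Wnt9a and Wnt4 at day 12 ended without any 1 array of that day (0.32 to 0.36, and -0.35 to -0.33). They also ended in a fit of the 4 day 12 arrays alone (adjusted p = 0.0682 and 0.0684). With the smooth muscle mean as a covariate the adjusted p was 0.0769 and 0.0661. That of Wnt9a ended with array weights (0.0617), and that of Wnt4 with the replicate number as a block (0.0501). The fall of Wnt3 held with each array left out, with -0.49 (adjusted p = 0.0474) without WT replicate 1 of day 12 and -1.02 (9.95e-04) without WT replicate 2. The other 5 ligands did not pass on any day. Wnt2b, a mesenchymal canonical ligand, had differences of 0.13, 0.36 and 0.03 at days 6, 9 and 12. Wnt5b and Wnt9b were each highest relative to WT at day 9 (0.30 and 0.23), and Wnt6 and Wnt11 stayed under a log2 signal of 6.

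None of the 3 R-spondins passed against WT. Rspo3, the main R-spondin of the crypt mesenchyme, read 5.43 and 5.31 in KO against 5.79 and 5.33 in WT at day 6. Day 9 gave 5.60 and 5.76 in KO against 5.38 and 5.70 in WT, and at day 12 they were 6.02 and 6.08 in KO against 5.83 and 5.68 in WT. The KO arrays of day 12 were above all 6 WT arrays, yet the difference of 0.30 (SE 0.15, adjusted p = 0.188) did not pass. Rspo1 had differences of -0.29, 0.03 and 0.20, and Rspo2 stayed between 4.91 and 5.23 on all arrays. Within KO, Rspo1 and Rspo3 differed across days (moderated F, adjusted p = 0.00595 and 0.0129). With the smooth muscle mean as a covariate these became 0.278 and 0.486, and without KO replicate 2 of day 6 the value for Rspo3 was 0.0675.

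Of 3 Frizzled receptors 2 fell at days 9 and 12, and the ligand acyltransferase Porcn rose at day 12. Fzd7, a receptor tied to crypt stem cells, read 7.63 and 7.40 in KO against 7.60 and 7.60 in WT at day 6. At day 9 it read 7.30 and 7.24 in KO against 8.14 and 8.07 in WT. That was a fall against WT of 0.84 (SE 0.12, limma adjusted p = 3.99e-04) or 1.79-fold. From day 6 to day 9 the WT arrays stood higher and the KO arrays lower, so the fall is not a change within KO alone. At day 12 Fzd7 read 7.65 and 7.28 in KO against 7.88 and 7.80 in WT, a fall of 0.37 (adjusted p = 0.0443). Fzd5, the epithelial receptor needed by Paneth cells, read 8.86 and 8.87 in KO against 8.85 and 8.95 in WT at day 6. At day 9 the signals were 8.55 and 8.44 in KO against 9.04 and 8.94 in WT, and at day 12 they were 7.99 and 8.25 in KO against 8.89 and 8.88 in WT. Its groups overlapped at day 6 and separated afterwards. The falls were 0.49 (SE 0.10, adjusted p = 0.00381) and 0.77 (adjusted p = 1.75e-04). The day 12 call of Fzd7 ended without KO replicate 2 (-0.19, adjusted p = 0.299) or either WT array of that day (-0.41 to -0.33). It also ended without any 1 WT array of days 6 and 9 or KO array of day 9. Quantile normalisation (adjusted p = 0.0732), array weights (0.0699) and a fit of the 4 day 12 arrays alone (0.133) ended it too.

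Porcn, which attaches the lipid that Wnt ligands need for secretion, read 6.22 and 6.35 in KO against 6.33 and 6.36 in WT at day 6. The day 9 arrays showed 6.50 and 6.62 in KO against 6.49 and 6.48 in WT, and at day 12 they were 6.97 and 7.20 in KO against 6.10 and 6.20 in WT. The KO arrays of day 12 stood apart from all other arrays. The rise was 0.93 (SE 0.10, limma adjusted p = 3.34e-05), or 1.91-fold, and held with each array left out. Fzd2 and the co-receptors Lrp5 and Lrp6 did not pass on any day, with differences of -0.29 to 0.12 over the 3 genes and days.

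**Figure D2:**
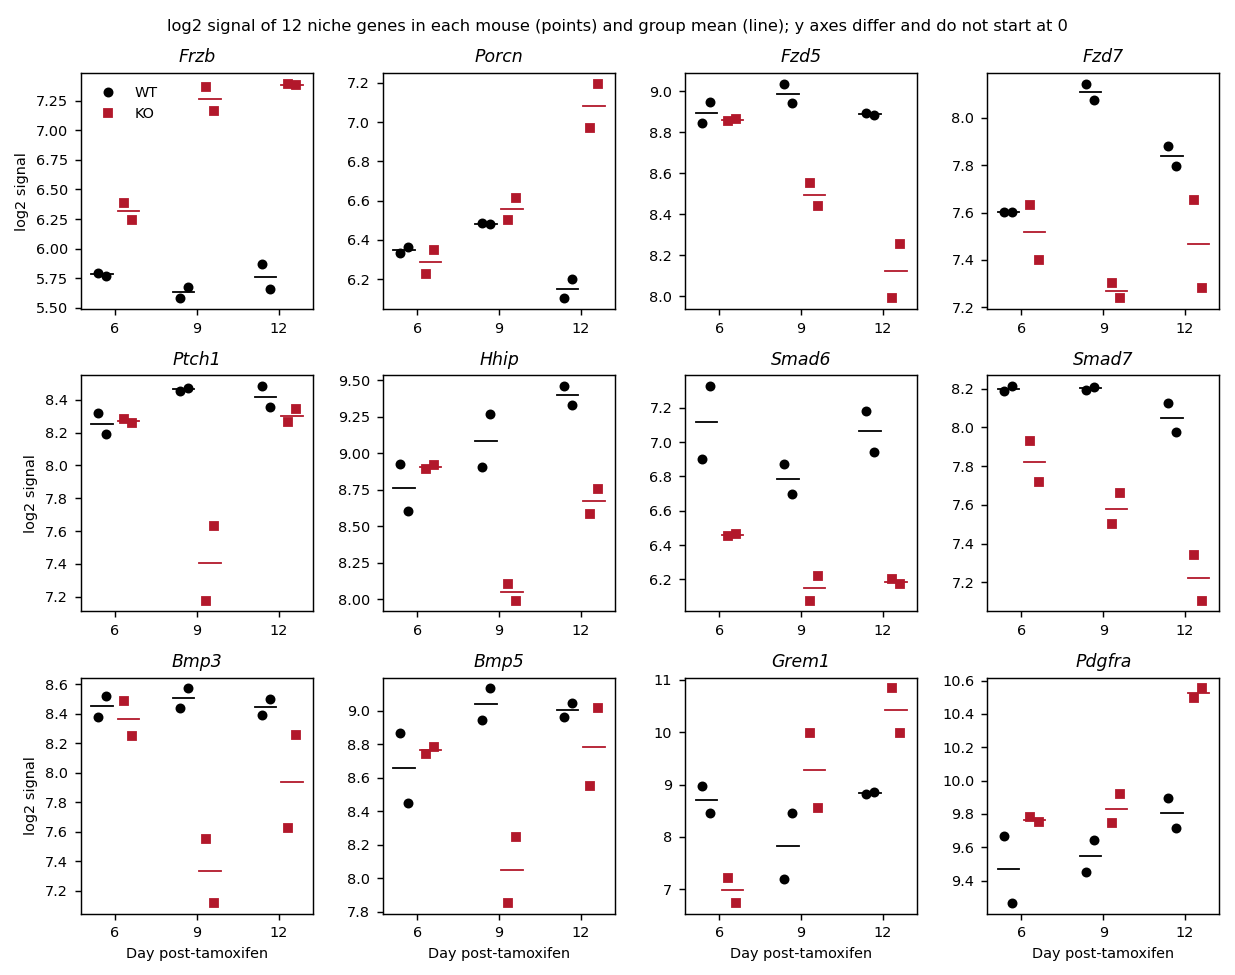
Log2 signal (y axis, ranges differ between panels) of 12 niche genes in each mouse at days 6, 9 and 12 (x axis), with WT as black circles, KO as red squares and lines at group means. KO lies above WT at each day for Frzb, Porcn rises on the KO arrays of day 12, and the KO arrays of Ptch1 drop at day 9 and read 8.26 and 8.34 at day 12.

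Of 5 BMP ligands, 2 fell and 0 rose at day 9, and 0 passed at days 6 and 12. Among all genes, 17.1% fell and 12.6% rose at day 9. Bmp3, an atypical ligand that opposes other BMPs, read 7.55 and 7.12 in KO against 8.44 and 8.57 in WT at day 9, a fall of 1.17 (SE 0.19, limma adjusted p = 8.4e-04), or 2.25-fold. At day 12 it read 7.62 and 8.26 in KO against 8.39 and 8.50 in WT, with both KO arrays still below WT and a difference of -0.51 (SE 0.19, adjusted p = 0.0761). Bmp5, a mesenchymal ligand, read 7.85 and 8.25 in KO against 8.95 and 9.13 in WT at day 9, a fall of 0.99 (SE 0.18, adjusted p = 0.00158), and 8.55 and 9.02 in KO against 8.96 and 9.05 in WT at day 12. There the groups overlapped. The day 9 falls of both held with each array left out.

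Bmp4, the main BMP of the villus mesenchyme, read 8.58 and 9.71 in KO against 9.75 and 9.93 in WT at day 9. KO replicate 1 was the low array and KO replicate 2 lay just under WT. The difference of -0.70 (SE 0.34, adjusted p = 0.153) did not pass. It was -1.26 (adjusted p = 0.0136) without KO replicate 2 and -0.13 (0.825) without KO replicate 1, so its size rested on which KO mouse was kept. At day 12 it read 9.45 and 10.35 in KO against 10.04 and 9.91 in WT, 1 KO mouse lying below WT and 1 above. Bmp2 and Bmp7 did not pass on any day, with differences from -0.28 to -0.01 and from -0.08 to 0.36.

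Grem1, the BMP antagonist made by muscle and mesenchyme below the crypts, rose at days 9 and 12, with the largest standard error of the 48 genes. Its log2 signals were 7.22 and 6.74 in KO against 8.97 and 8.46 in WT at day 6. Values of day 9 were 9.99 and 8.55 in KO against 7.20 and 8.46 in WT, and at day 12 they were 10.84 and 9.99 in KO against 8.81 and 8.87 in WT. KO lay below WT at day 6 and above it at days 9 and 12, and the WT arrays of day 9 were themselves far apart. The day 6 difference of -1.74 (SE 0.47, limma adjusted p = 0.137) did not pass, though it did in a fit of the 4 day 6 arrays alone (0.0254), and the rises of 1.44 (adjusted p = 0.0387) and 1.58 (adjusted p = 0.0276) did, 2.72-fold and 2.98-fold. The day 9 call ended without KO replicate 1 (0.72, adjusted p = 0.336) or WT replicate 1 (0.82, 0.299) of day 9, or either WT array of day 12 (0.0542). The day 12 call ended without KO replicate 1 (1.15, adjusted p = 0.177), WT replicate 1 (0.109) or WT replicate 2 (0.101) of day 12, and with array weights (0.0521). Both ended with a trended robust prior (0.127 and 0.109). The day 9 call also ended with the replicate number as a block (adjusted p = 0.0607) and in a fit of the 4 day 9 arrays alone (0.0748). At day 6 the smooth muscle markers stood lower too, 1 of 14 called lower and none higher, with a median difference of -1.39. Lower calls made up 0.431% of all genes that day. With the smooth muscle mean as a covariate the Grem1 difference was 0.10 at day 6 (adjusted p = 0.945), 1.35 at day 9 (1.06e-04) and 0.93 at day 12 (0.00223). Averaged over days it was 0.80 (1.15e-04) with the covariate, against 0.43 (adjusted p = 0.273) without it.

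**Figure D3:**
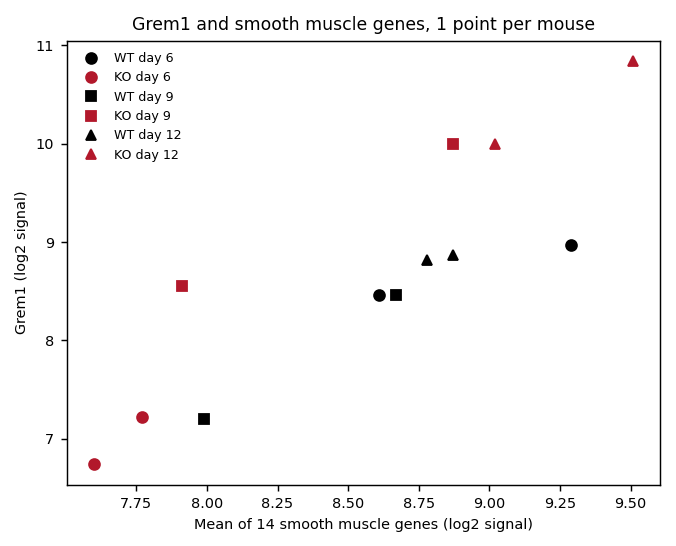
Grem1 log2 signal (y axis) against the mean log2 signal of 14 smooth muscle genes (x axis), 1 point per mouse, with WT in black, KO in red and a symbol per day. The KO mice of day 6 are low on both axes (Grem1 7.22 and 6.74), and the KO mice of days 9 and 12 lie between 8.55 and 10.84 for Grem1.

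Chrdl1, another secreted antagonist, read 6.46 and 6.46 in KO against 5.54 and 6.16 in WT at day 12, and its difference of 0.61 (SE 0.23, adjusted p = 0.0741) did not pass. Noggin (Nog) and chordin (Chrd), which trap BMP ligands, had differences between -0.04 and 0.23 and between -0.04 and 0.17. Of the receptors, Bmpr1a read 10.38 and 10.10 in KO against 9.97 and 9.82 in WT at day 6. On the arrays of day 9 the values were 9.56 and 9.68 in KO against 9.94 and 10.05 in WT, and at day 12 they were 9.99 and 10.26 in KO against 9.93 and 9.99 in WT. It fell by 0.37 at day 9 (SE 0.12, limma adjusted p = 0.0395). This call ended without any 1 array of day 9 (-0.43 to -0.32) or either WT array of day 12 (adjusted p = 0.0548), and with quantile normalisation (-0.27, adjusted p = 0.103). Bmpr2 did not pass, its largest difference being 0.53 (SE 0.22, adjusted p = 0.102) at day 12.

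Of 5 BMP targets 3 fell at day 9 and 2 at day 12, and the inhibitory Smads fell on both days. Lower calls made up 17.1% and 13.7% of all genes on those days. Smad6, which blocks BMP receptors, read 6.45 and 6.47 in KO against 6.90 and 7.33 in WT at day 6. Day 9 gave 6.08 and 6.22 in KO against 6.87 and 6.70 in WT, and at day 12 they were 6.20 and 6.17 in KO against 7.18 and 6.94 in WT. All 6 KO arrays lay below all 6 WT arrays. The differences were -0.66 (limma adjusted p = 0.052) at day 6, where it did not pass, -0.64 (0.00482) at day 9 and -0.88 (5.6e-04) at day 12, each with SE 0.14. Smad7, which blocks BMP and TGF-beta receptors, read 7.93 and 7.72 in KO against 8.19 and 8.21 in WT at day 6. Its later values were 7.50 and 7.66 in KO against 8.19 and 8.21 in WT at day 9 and 7.34 and 7.11 in KO against 8.12 and 7.97 in WT at day 12. Its KO arrays also lay below all WT arrays, with falls of 0.62 (SE 0.11, adjusted p = 0.00157) at day 9 and 0.83 (adjusted p = 2.01e-04) at day 12. Averaged over days Smad6 fell by 0.72 and Smad7 by 0.61, each with an exact within-day permutation p of 0.00926.

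Id genes, which restrain differentiation factors of the helix-loop-helix family, differed from one another. Id1, the classical BMP readout, read 9.37 and 9.39 in KO against 9.46 and 9.78 in WT at day 6. At day 9 the signals were 9.16 and 9.28 in KO against 9.69 and 9.35 in WT, and at day 12 they were 9.25 and 8.84 in KO against 9.56 and 9.24 in WT. Id1 did not pass on any day. Averaged over days it fell by 0.30 (SE 0.10, limma adjusted p = 0.0348; exact permutation p = 0.0185). The call ended when any of 7 single arrays was left out (KO replicates 1 and 2 and WT replicate 2 of day 6, KO and WT replicates 1 of day 9, WT replicate 1 and KO replicate 2 of day 12; -0.30 to -0.23). At day 12 alone the difference was -0.35 (adjusted p = 0.156), with -0.56 (0.0494) without KO replicate 1 and -0.15 (0.608) without KO replicate 2. Id2 had means of 8.57 in KO and 8.93 in WT at day 6, with both KO arrays below both WT arrays, and did not pass. At day 9 it read 8.44 and 8.28 in KO against 8.74 and 8.82 in WT, a fall of 0.42 (SE 0.12, adjusted p = 0.0182). At day 12 it read 9.05 and 9.18 in KO against 8.77 and 8.85 in WT. There both KO arrays were the higher ones, with a difference of 0.30 (SE 0.12, adjusted p = 0.0818) that did not pass. The fall of Id2 ended without KO replicate 2 (-0.34, adjusted p = 0.104), WT replicate 1 (-0.46, 0.0545) or WT replicate 2 (-0.38, 0.113) of day 9, and with quantile normalisation (-0.32, 0.065). Id3 had differences of 0.01, 0.02 and 0.32, none of which passed.

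Of 3 Hedgehog targets, Ptch1 and Hhip fell at day 9 and Hhip fell at day 12. Ptch1, the Hedgehog receptor, read 8.28 and 8.26 in KO against 8.32 and 8.19 in WT at day 6. The day 9 arrays showed 7.18 and 7.63 in KO against 8.46 and 8.47 in WT, and at day 12 they were 8.26 and 8.34 in KO against 8.48 and 8.35 in WT. Both KO arrays of day 9 were lower than any other array, a fall of 1.06 (SE 0.13, limma adjusted p = 1.09e-04) or 2.08-fold. At day 12 the difference was -0.12 (SE 0.13, adjusted p = 0.595). Hhip, the decoy that binds Hedgehog ligands, read 8.89 and 8.92 in KO against 8.93 and 8.60 in WT at day 6. The later values were 8.11 and 7.99 in KO against 8.90 and 9.27 in WT at day 9 and 8.59 and 8.76 in KO against 9.46 and 9.34 in WT at day 12. It fell by 1.04 at day 9 (adjusted p = 2e-04) and by 0.73 at day 12 (adjusted p = 0.00207), and these calls and that of Ptch1 held with each array left out. The WT mean of Hhip was 8.8, 9.1 and 9.4 at days 6, 9 and 12, and the KO mean 8.9, 8.0 and 8.7. WT thus stood higher at the later days, so the falls of Hhip are not changes within KO alone. Gli1, the pathway's transcription factor and its most used readout, read 5.80 to 6.11 on all arrays, with differences of -0.10, 0.01 and 0.14. Its signal lay near the 6 below which probe sets were treated as dim.

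The ligand Ihh, made by the epithelium, read 8.31 and 8.13 in KO against 7.91 and 7.88 in WT at day 9 and 8.17 and 7.85 in KO against 7.81 and 7.67 in WT at day 12. KO lay above WT at both days, with differences of 0.33 (SE 0.10, limma adjusted p = 0.0587) and 0.27 (0.126) that did not pass. The day 9 value passed with quantile normalisation (0.44, adjusted p = 0.019), with dim genes filtered out (0.0467), with array weights (0.0427) or with the replicate number as a block (0.0443), and without either KO array of day 12 (0.0256). Without KO replicate 1 of day 9 it was 0.24 (0.296). The day 12 value was 0.43 (adjusted p = 0.0233) without KO replicate 2 of that day and 0.11 (0.616) without KO replicate 1. Averaged over the 3 days Ihh rose by 0.22 (adjusted p = 0.028; exact permutation p = 0.0278). This call ended when any of 7 single arrays was left out (WT and KO replicates 1 of day 6, KO replicate 1 and both WT arrays of day 9, KO replicate 1 and WT replicate 2 of day 12; 0.17 to 0.23). Shh stayed between 5.47 and 5.87 on all arrays.

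Pdgfra, which marks the mesenchymal cells that supply BMP and Wnt ligands, read 10.49 and 10.55 in KO against 9.89 and 9.71 in WT at day 12 and rose by 0.72 (SE 0.13, limma adjusted p = 0.00177), or 1.65-fold. The KO arrays of that day stood above the whole WT range of 9.27 to 9.89, and the average over days was 0.43 (exact permutation p = 0.00926). Foxl1, the marker of telocytes, read 4.99 to 5.49 on all arrays. The 17 fibroblast and telocyte markers, Pdgfra among them, had means of 8.58 to 8.65 in WT and 8.73 to 8.88 in KO at day 12, with 5 called higher and 2 lower. The 6 mesothelial markers had means of 7.15 to 7.21 in WT and 7.60 to 7.72 in KO that day, with 3 called higher. All genes were called higher and lower at 13.7% each at day 12. The part of either cell type in the rise of Pdgfra was not tested.

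Averaged over the days, 16 of the 48 niche genes passed, or 33.3% against 32.6% of all genes. Of these 5 were higher and 11 lower, or 10.4% and 22.9%, against 15.7% and 16.9% of all genes. Besides those given, Bmp3 fell by 0.59 (limma adjusted p = 0.00159), Hhip by 0.54, and Fzd5 and Fzd7 by 0.43 each. Falls were 0.39 for Ptch1, 0.37 for Bmp5, 0.31 for Wnt3 and 0.21 for Wnt4. Porcn rose by 0.32 and Wnt9a by 0.27. The exact within-day permutation p was under 0.05 for Bmp3 (0.0185), Hhip (0.037), Fzd5 and Fzd7 (0.0278 each), and Wnt4 and Wnt9a (0.0185 each). It was not for Ptch1 (0.0648), Bmp5 (0.102), Porcn (0.13) and Wnt3 (0.0833). The averaged call of Wnt4 ended with the mean of its probe sets (-0.15, limma adjusted p = 0.0527). The call of Wnt3 ended when any of 7 single arrays was left out (both KO arrays and WT replicate 2 of day 6, KO and WT replicates 1 of day 9 and of day 12; -0.32 to -0.22). That of Bmp5 ended without KO replicate 1 (-0.30, adjusted p = 0.0504) or WT replicate 2 (-0.34, 0.0518) of day 9.

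The KO minus WT difference itself varied between days for 11 niche genes (moderated F over 3 days, 22.9% against 18.5% of all genes). From day 6 to day 9 it moved down for Ptch1 by 1.08 (limma adjusted p = 0.00368; 0.83 at 0.0976 with the smooth muscle covariate) and for Hhip by 1.18 (0.0031). For Ptch1 it moved back up by 0.95 from day 9 to day 12 (adjusted p = 0.0156; without WT replicate 2 of day 9 it was 0.94 at 0.0688, and without WT replicate 2 of day 12 0.88 at 0.069), while for Hhip the change of 0.31 between those days did not pass (0.392). For Grem1 the difference moved up by 3.18 from day 6 to day 9 (0.0107, and 0.0591 with a trended robust prior). With the smooth muscle covariate the difference moved up by 1.25 (0.0552). For Porcn it moved up by 0.86 from day 9 to day 12 (0.00839), and for Id2 by 0.73 (0.0304). The WT mean of Porcn was 6.48 at day 9 and 6.15 at day 12, so part of its step lay in WT. The call of Id2 ended without any 1 array of day 9, either WT array of day 12 or KO replicate 2 of day 12 (0.64 to 0.81). The count of 11 was 7 without KO replicate 1 of day 6 or WT replicate 2 of day 9, and 4 with the smooth muscle mean as a covariate.

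Within WT, 0 of the 48 genes differed across days at the threshold (4 of all genes did, 0.0201%; 8 of the 48 had an unadjusted p under 0.05). Within KO, 23 did, or 47.9% against 37.6% of all genes, with the smallest adjusted p for Frzb (4.32e-05), Porcn (3.8e-04), Ptch1 (4.76e-04) and Grem1 (6.9e-04). With the smooth muscle mean as a covariate the count was 11. From day 9 to day 12 in KO, 13 niche genes rose and 4 fell, or 27.1% and 8.33% against 14.1% and 8.81% of all genes, that is 35.4% against 22.9% called in either direction. The total of 17 was 5 without KO replicate 2 of day 12 and 8 without KO replicate 1 of day 9. Among these, Ptch1 rose by 0.90 (limma adjusted p = 0.0011), Id2 by 0.76 (0.00157), Pdgfra by 0.69 (0.00485) and Porcn by 0.53 (0.00441), each with the call held when any 1 array was left out.

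Other genes of the same pathways were read from lists drawn up by role, 112 genes in all. Of these, 2 passed at day 6 (1.79%), 31 at day 9 (27.7%) and 36 at day 12 (32.1%), shares near the background given above. The day 12 count was 18 without WT replicate 1, 22 without WT replicate 2 and 23 without KO replicate 2 of that day. Wnt targets of the crypt moved in both directions: of 13, 6 fell and 2 rose at day 9, and 6 fell and 3 rose at day 12. Among all genes, 17.1% fell and 12.6% rose at day 9, with 13.7% each way at day 12. Lgr5, the R-spondin receptor that marks stem cells, read 5.84 and 6.16 in KO against 7.54 and 7.58 in WT at day 9 and fell by 1.56 (SE 0.16, limma adjusted p = 2.81e-05), and by 2.13 at day 12. Axin2, the feedback inhibitor induced by Wnt, fell by 1.74 at day 12, and the cyclin Ccnd1 by 1.27 at day 9. The WT mean of Ccnd1 was 9.31 at day 6 and 9.96 at day 9, so WT stood higher at day 9 as well. The adhesion receptor Cd44 rose by 0.87, 1.53 and 1.85 at days 6, 9 and 12. These calls held with each array left out; with the smooth muscle mean as a covariate the day 6 rise of Cd44 was 0.81 (adjusted p = 0.186). The crypt base stem cell list shares most of its genes with the Wnt targets (Lgr5, Axin2, Ascl2, Smoc2 and Tnfrsf19), so its fall is not a separate measure of them.

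Upstream of the Wnt targets, the glypican co-receptor Gpc4 fell by 0.96 at day 9 (limma adjusted p = 2.61e-05) and 1.31 at day 12, and the Wnt5a receptor Ror2 rose by 0.59 and 0.81. Lgr4, the broader R-spondin receptor, fell by 0.79 at day 9 (adjusted p = 0.00166), as did the beta-catenin partner Bcl9, by 0.74. The receptor Fzd6 rose by 0.95 at day 12, and the calls of these 5 genes held with each array left out. Of 14 genes of Wnt signal transduction, 1 passed at day 9 and 3 at day 12, beside 29.7% and 27.3% of all genes. Wnt2 rose by 0.45 at day 9 (adjusted p = 0.00721), which ended without WT replicate 1 (0.40). The Wnt2 signal stayed under 6 on all arrays (5.25 to 5.89), which limits what can be seen of it.

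Among 14 further BMP ligands and antagonists, 4 rose and 1 fell at day 9, and 7 rose and 2 fell at day 12. Rises and falls made up 12.6% and 17.1% of all genes at day 9, and 13.7% each at day 12. Bmp8b, a BMP ligand, read 7.69 and 7.26 in KO against 7.61 and 7.67 in WT at day 6. Values of day 9 were 8.90 and 9.17 in KO against 7.62 and 7.80 in WT, and at day 12 they were 10.24 and 10.52 in KO against 7.32 and 7.39 in WT. Its KO arrays of day 12 were the highest of all arrays, a rise of 3.02 (SE 0.15, limma adjusted p = 9.56e-08). Follistatin (Fst), which traps activins and some BMPs, read 8.18 and 7.98 in KO against 6.98 and 6.79 in WT at day 9 and 9.00 and 8.45 in KO against 6.71 and 6.46 in WT at day 12. It rose by 1.20 and 2.14 (adjusted p = 2.92e-04 and 2.99e-06). The WT mean of Fst was 7.3, 6.9 and 6.6 at days 6, 9 and 12, and the KO mean 8.2, 8.1 and 8.7. WT thus stood lower at the later days. At day 6 its rise of 0.92 (adjusted p = 0.0342) ended without any 1 array of that day or either WT array of day 9 (0.83 to 1.01). Inside the cell, the BMP effector Smad1 fell by 0.94 at day 9 and 0.55 at day 12. The co-receptor Rgmb fell by 1.06 at day 9, and Smurf1, which targets Smads for degradation, rose by 0.81 and 0.79; these 5 calls and those of Bmp8b held with each array left out. Of 6 further BMP target genes, 0 passed on any day (1 of the 18 gene and day pairs had an unadjusted p under 0.05, Atoh8 at day 9).

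Of 16 further Hedgehog genes, 3 fell and 0 rose at day 9, and 5 rose and 1 fell at day 12. Among all genes, 17.1% fell and 12.6% rose at day 9, with 13.7% each way at day 12. Disp1, which releases Hedgehog ligands from the cell, fell by 0.76 at day 9 (limma adjusted p = 3.14e-04), and the inhibitor Sufu by 0.48 (0.00134). At day 12 the survival gene Bcl2 rose by 1.29 (adjusted p = 0.00107), and these 3 calls held with each array left out. The transcription factor Osr1 rose by 1.48 (0.0108), which ended without WT replicate 1 (1.40, 0.0657) or KO replicate 2 (1.02, 0.0886) of day 12. Gli3, mainly a repressor among the Gli factors, rose by 0.68 (adjusted p = 0.00641), which ended without KO replicate 1 (0.49) or WT replicate 2 (0.59). The Gli3 signal stayed under 6 on all arrays (4.70 to 5.98), which limits what can be seen of it.

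**Figure D4:**
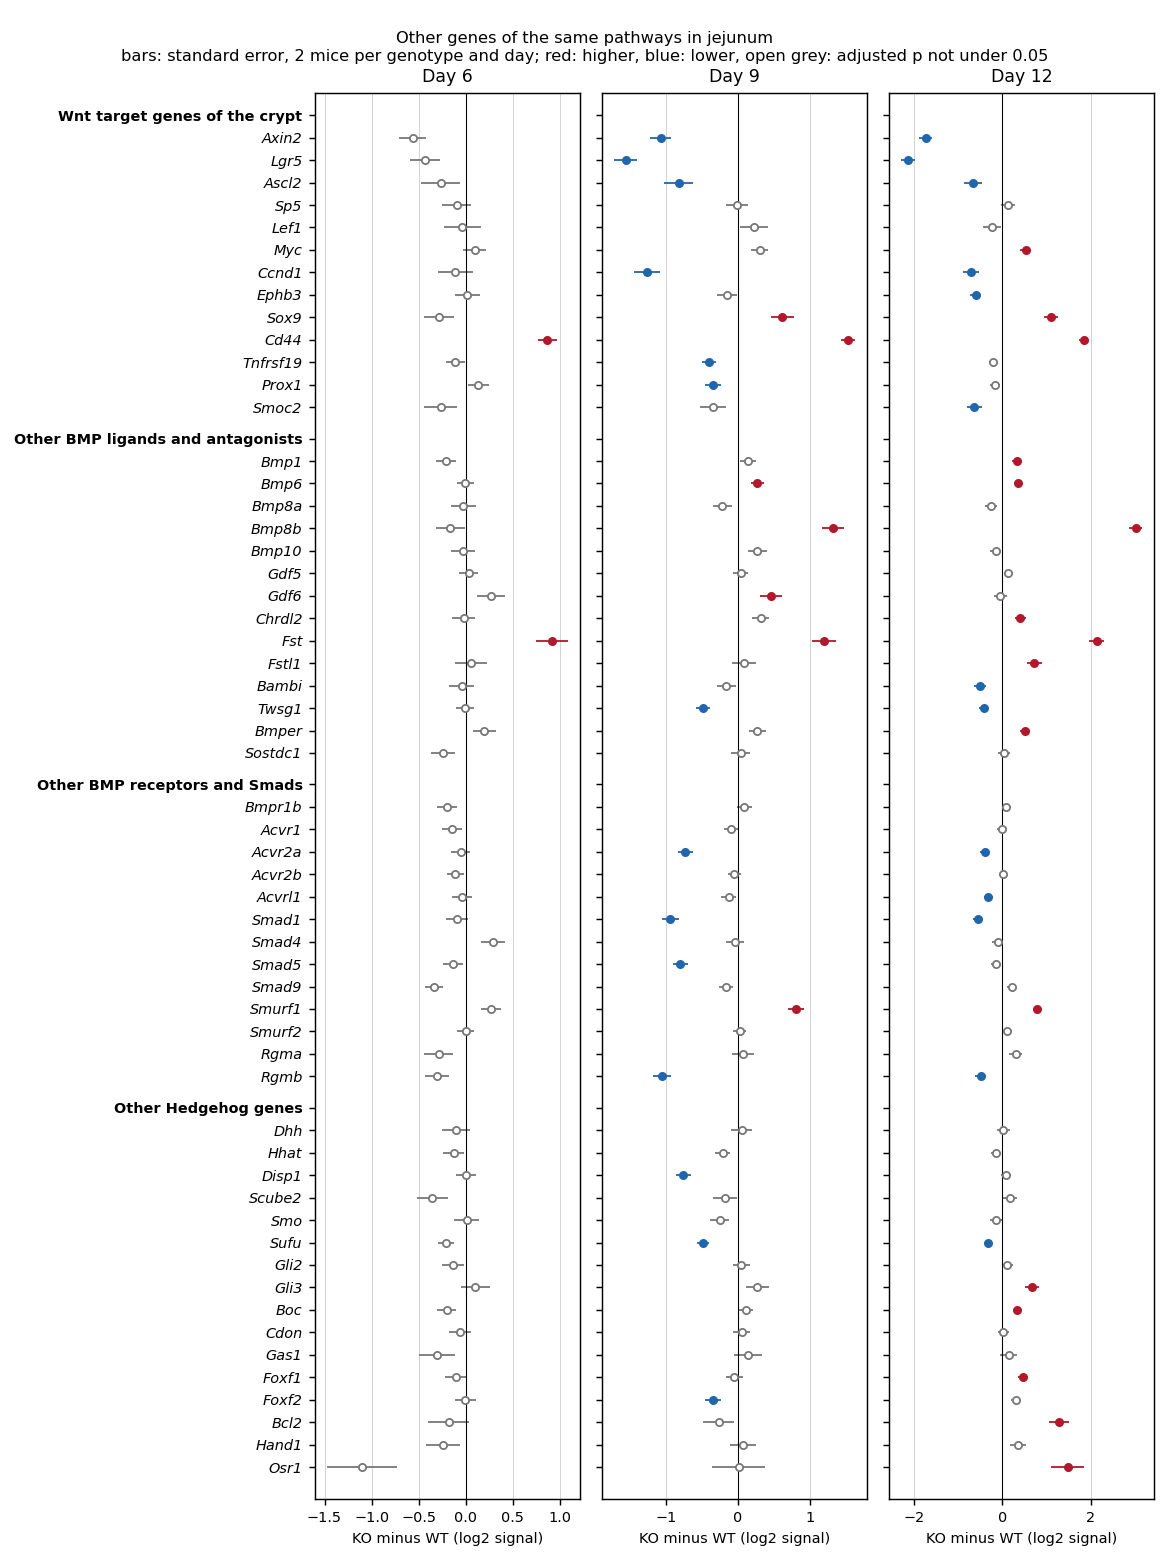
KO minus WT differences in log2 signal (x axis, bars are standard errors, 2 mice per genotype and day) for 4 lists of further pathway genes at days 6, 9 and 12. Red points are called higher, blue points called lower and open grey points not called; Cd44, Bmp8b and Fst lie to the right at days 9 and 12 while Lgr5 lies to the left.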

How the data were processed

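Whole jejunum RNA of 12 mice was hybridised to 1-colour arrays, 2 mice per genotype and day. The authors deposited log2 signals for 35556 probe sets, and these were used as deposited; limma and R 3.5 appear, without a role, in the submitters' processing notes. How background was corrected and arrays were normalised is not given in the sources used here. Of the probe sets, 21789 carried 1 gene symbol, 1621 several and 12146 none in the platform table. Where 999 genes had several single-symbol probe sets, the one with the highest mean was kept, which left 19938 genes. Of the 48 niche genes, Wnt4 alone had more than 1. No filter was applied to the values behind the report; 39 of the 48 reached a log2 signal of 6 on at least 2 arrays. The 9 that did not were Wnt6, Wnt11, Rspo2, Sfrp2, Sfrp5, Wif1, Chrd, Shh and Foxl1.

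Group means were fitted over all 12 arrays with limma 3.58.1 in R 4.3.3 (empirical Bayes, 6 residual and 5.23 prior degrees of freedom). Contrasts were KO minus WT per day and averaged, day differences of these, and F tests across days; tests were two-sided and adjusted by Benjamini-Hochberg over 19938 genes, with calls under 0.05. The fit was checked on simulated data with independent noise for each gene and few genes changed, which differs from these arrays. That check carries no statement on the calls made here. The exact test permuted genotypes within days (216 relabellings, smallest p 0.00926); 2 against 2 on 1 day cannot go below 0.333. The labels say each group is 2 mice and name no litter or batch, and precision is limited by how few arrays there are.

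The 48 genes and all lists were chosen with earlier results of these data known. The text names the targeted gene, called niche genes per day (up to 10 per direction, largest first), the 8 smallest p for the interaction, 4 for changes across days, Ihh, Gli1, Ptch1, Bmp4, Id1, Grem1, Rspo3 and Wnt5a, and up to 3 called pathway genes per list and day. Bmpr1a and the other genes named with a value were added after their values were seen. Alternatives tried were array centring, quantile normalisation, the mean of a gene's probe sets, a dim filter, a trended robust prior, array weights, a replicate block, a smooth muscle covariate, single-day fits and leaving out each array; those for day-to-day steps were added after the data were seen. Promoter windows came from RefSeq.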

Additional observations from a re-analysis of the deposited data

Results flagged for a closer look

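For 11 niche genes the KO minus WT difference was not the same on the 3 days, by a moderated F test of the genotype by day interaction (limma, 2 mice per group), and each is given with its adjusted p. For Frzb (0.000655) the rise was larger at days 9 and 12 than at day 6. For Porcn (0.00129) a rise was called at day 12. For Ptch1 (0.0039) the fall was called at day 9, and for Hhip (0.00439) at days 9 and 12. For Grem1 (0.00796) the difference was negative at day 6 and positive afterwards. For Fzd5 (0.0131) and Fzd7 (0.0282) the falls were called at days 9 and 12. For Id2 (0.0168) the difference was negative at days 6 and 9 and positive at day 12. For Bmp5 (0.0258), Bmpr1a (0.0297) and Bmp3 (0.0397) the fall was called at day 9.

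The interaction calls of Frzb, Porcn, Ptch1, Hhip and Grem1 held when any 1 array was left out. Those of the others ended for at least 1 array left out, with adjusted p up to 0.0526 for Fzd5 (without KO replicate 2 of day 6; 0.0518 without WT replicate 1), 0.0691 for Id2 (without WT replicate 1 of day 12), 0.0932 for Fzd7 (without WT replicate 1 of day 9), 0.103 for Bmp5 and 0.119 for Bmpr1a (each without WT replicate 2 of day 9), and 0.128 for Bmp3 (without WT replicate 2 of day 9). With the smooth muscle mean as a covariate, 4 niche genes passed, and the adjusted p was 0.0526 for Grem1, 0.0571 for Id2 and 0.224 for Fzd5. A trended robust prior ended the interaction call of Grem1 (adjusted p = 0.0563). Quantile normalisation ended those of Fzd7 (0.0582), Bmp3 (0.0615) and Bmpr1a (0.065).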

How the results depend on the processing

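At day 6 the count of niche genes called, 1, became 2 with the dim filter, 2 with the trended robust prior, 2 with array weights, 0 with the replicate block and 0 with the smooth muscle covariate. The interaction count of 11 became 4, and the count across days in KO of 23 became 11, with that covariate. The 17 genes that differed between days 9 and 12 in KO became 7 with array weights and 6 with the covariate. Of the 112 other pathway genes, the 2 of day 6 became 4 with the dim filter or array weights and 0 with the covariate, and the 36 of day 12 became 23 in a fit of the 4 arrays of that day. Of all genes, the 205 of day 6 became 415 with array weights, 101 with the replicate block and 17 with the covariate. At day 6 that covariate did not overlap between genotypes (7.60 to 7.77 in KO, 8.61 to 9.29 in WT). Fewer calls with it thus need not mean smaller differences. With it the day 6 differences were 0.705 for Frzb, 1.05 for Fst, 0.81 for Cd44 and 0.10 for Grem1. Without it they were 0.53, 0.92, 0.87 and -1.74. The part of muscle in the day 6 differences was not tested. With 1 array left out the counts ran from 0 to 1 at day 6, 10 to 16 at day 9, 8 to 12 at day 12, 12 to 17 for the average, 7 to 12 for the interaction, 0 to 0 across days in WT and 17 to 25 across days in KO. No called gene changed direction under any alternative run.

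Replicate numbers are shared between genotypes but did not pair the mice: deviations of same-numbered arrays correlated at 0.18, -0.09 and 0.11 at days 6, 9 and 12. With the number as a block within each day, the counts were 14 at day 9, 14 at day 12, 17 for the average and 12 for the interaction. The block could not be fitted across days within a genotype, since each block lies in 1 day. Low signal limits the 9 dim genes, whose values say little about their RNA.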
